A study of Rattus norvegicus with 12 samples.

Results

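The genes of antigen processing and presentation were followed across rings of rat aorta cultured in fibrin or collagen gel, with or without the inflammatory cytokine TNF-alpha (TNF). The list was chosen by gene symbol and holds 39 genes, of which 35 were measured by a probe set that names 1 gene, among 14324 genes measured in all. The class I arm held 17 of the measured genes and the class II arm 18. RT1-A1, RT1-A2 and RT1-CE1 lay only on probe sets that name several genes, and Nlrc5 was not analysed here. The rings came from male Fisher 344 rats of 1 to 2 months and were kept in serum-free medium, and RNA was taken at day 2 of culture. The 4 groups of 3 arrays were fibrin with 10 ng/ml recombinant rat TNF, fibrin control, collagen with 10 ng/ml TNF and collagen control, and both controls were untreated. Each sample pooled 4 to 6 ring cultures, so an array gives the average of whole rings with all their cell types.

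Class I molecules, made of a heavy chain and beta-2-microglobulin, show peptides from inside the cell to CD8 T cells. The proteasome cuts these peptides, the TAP transporter carries them into the endoplasmic reticulum, and a loading complex places them on the heavy chain. Class II molecules instead show peptides from endosomes to CD4 T cells and are made mainly by macrophages, dendritic cells and B cells. In the rat the heavy chains and class II chains carry the name RT1, which is the rat's major histocompatibility complex. Most nucleated cells, vascular cells included, can raise class I, and interferons and TNF are known inducers of it.

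All levels below are log2 values of the deposited table, so a difference of 1 is a doubling, and levels of different genes are not compared because each probe set has its own brightness. Of the 35 genes, 16 lie on rat chromosome 20. RT1 genes have close copies that can share probes, so each RT1 class I gene is uncertain as a single gene. The titles call the replicates biological, but no animals are named, so the p-values speak only of the spread among these pooled cultures. Markers of smooth muscle, endothelium and fibroblasts were present, with list means of 7.73 to 8.68, 9.30 to 9.67 and 11.13 to 11.43 over the 12 arrays. The smooth muscle list averaged 7.85 in fibrin TNF, 8.09 in fibrin control, 8.11 in collagen TNF and 8.51 in collagen control. Of its 5 measured markers, 3 (Lmod1, Tagln and Myh11) were lower in untreated fibrin than in untreated collagen, and 2 (Lmod1 and Tagln) fell with TNF in collagen, where 5.19% and 3.1% of all genes were called lower. These group means stood in the reverse order to that of most class I genes below. However, the list means of fibrin control (7.96 to 8.31) and collagen TNF (8.01 to 8.21) overlapped. For TNF in fibrin and between the gels with TNF, 0 of the 5 markers were called, where 3.13% and 8.19% of all genes were called. The part of the smooth muscle markers in the class I results was not tested. The macrophage and monocyte list, the other cell type of most bearing here, had means of 8.54 to 8.74 in fibrin TNF, 8.67 to 8.92 in fibrin control, 9.11 to 9.47 in collagen TNF and 9.16 to 9.39 in collagen control.

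Most genes of the class I arm were higher in fibrin than in collagen, and fewer were higher with TNF than without. Without TNF, 12 of the 17 class I genes were higher in fibrin and 0 were lower (limma, Benjamini-Hochberg adjusted p under 0.05 over all genes). Of all genes, 5.35% were called higher in that comparison, and 10.5% in either direction. With TNF present in both gels, 14 of 17 were higher in fibrin and 0 lower, where 4.55% of all genes were called higher and 8.19% either way. The median class I difference between the gels was 0.57 without TNF and 0.55 with it, beside medians over all genes of -0.0094 and -0.0043. In bulk RNA such a difference cannot be told apart from a change in the number of cells that express the genes.

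In fibrin, 5 of the 17 class I genes rose with TNF and 0 fell, against a background of 1.65% of all genes called higher, 1.47% lower and 3.13% either way. In collagen 7 of 17 rose and 0 fell, with 3.27% of all genes called higher, 3.1% lower and 6.37% either way. The median class I difference was 0.21 in fibrin and 0.28 in collagen, beside 0.012 and 0.0027 over all genes. Psmb8, Psmb9, Psmb10 and Tap1 rose in both gels. Leaving out 1 fibrin array can end the TNF calls in fibrin of Psmb8, Psmb9, Psme2 and Tap1, and leaving out 1 collagen array can end those in collagen of Psmb8, Tapbp and Tapbpl.

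**Figure D1:**
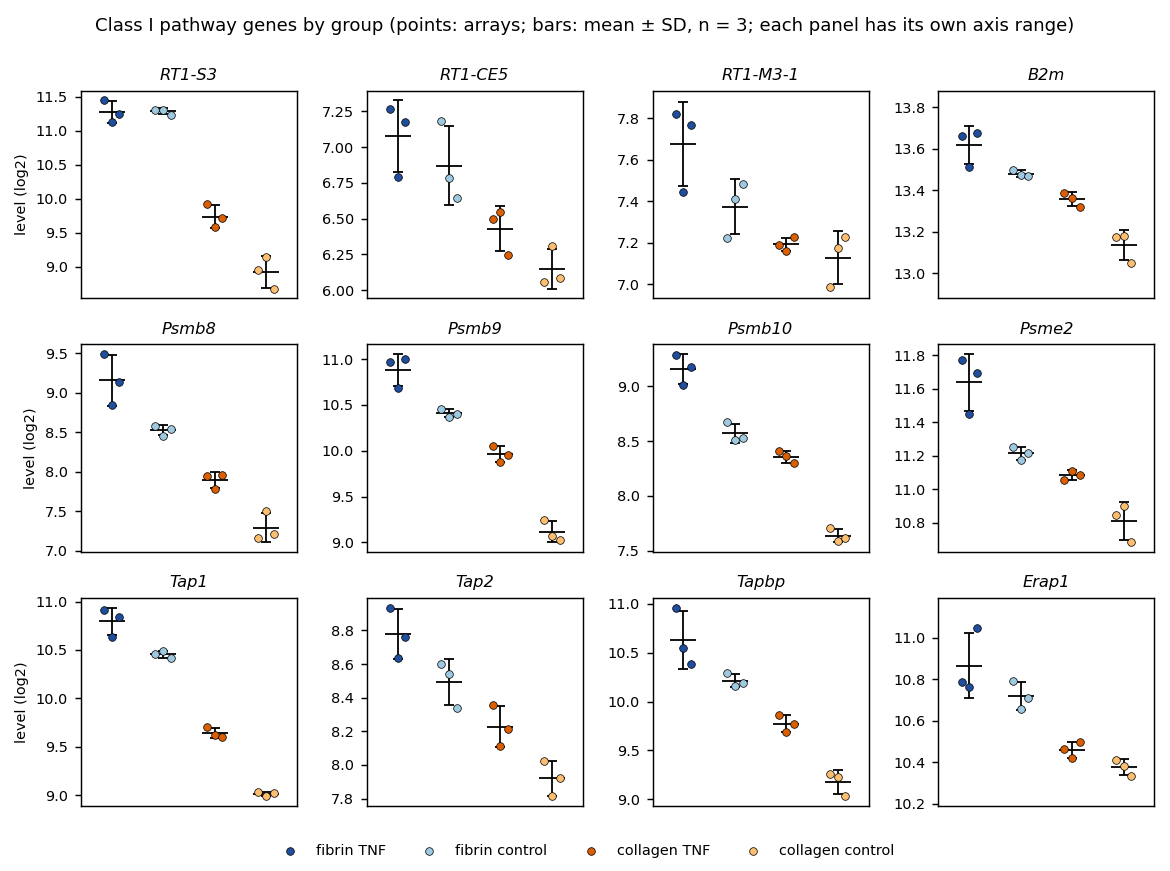
Log2 level (vertical axis, a range of its own in each panel) of 12 class I pathway genes in fibrin TNF, fibrin control, collagen TNF and collagen control rings. Points are arrays, and bars are the mean ± SD of 3 arrays. The collagen control mean is the lowest in every panel, and in all panels but RT1-S3 the fibrin TNF mean is the highest.

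The inducible catalytic subunits of the proteasome, which replace the standard ones to form the immunoproteasome, were higher in fibrin and rose with TNF in both gels. Psmb9 measured 10.97, 10.68 and 11.00 in fibrin TNF, 10.45, 10.37 and 10.40 in fibrin control, 10.05, 9.88 and 9.96 in collagen TNF, and 9.25, 9.07 and 9.02 in collagen control. No arrays of any 2 of these groups overlapped. TNF raised it by 0.48 ± 0.09 (SE) in fibrin (1.39-fold, adjusted p = 0.0136, limma) and by 0.85 ± 0.09 in collagen (1.80-fold, adjusted p = 1.18e-04). Fibrin exceeded collagen by 1.29 ± 0.09 without TNF (2.45-fold, adjusted p = 1.32e-06) and by 0.92 ± 0.09 with it.

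Psmb10 had 9.29, 9.01 and 9.17 in fibrin TNF, 8.67, 8.51 and 8.53 in fibrin control, 8.41, 8.36 and 8.30 in collagen TNF, and 7.71, 7.59 and 7.61 in collagen control. The 4 groups again stood apart, in the same order. Its TNF effect was 0.59 ± 0.08 in fibrin (adjusted p = 0.00157, limma) and 0.72 ± 0.08 in collagen, and in both gels it stayed past the threshold under every alternative setting run. Psmb8 was spread more widely, with 9.49, 8.84 and 9.14 in fibrin TNF, 8.58, 8.45 and 8.54 in fibrin control, 7.95, 7.78 and 7.96 in collagen TNF, and 7.15, 7.50 and 7.21 in collagen control. It rose with TNF by 0.63 ± 0.14 in fibrin and 0.61 ± 0.14 in collagen, and it was 1.24 ± 0.14 higher in fibrin than in collagen without TNF (2.36-fold).

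Psme1 and Psme2 encode the PA28 activator, a cap that opens the proteasome. Psme2 measured 11.64 ± 0.17 (SD, n = 3) in fibrin TNF, 11.22 ± 0.04 in fibrin control, 11.08 ± 0.03 in collagen TNF and 10.81 ± 0.11 in collagen control. It rose with TNF in fibrin by 0.42 ± 0.09 (SE, adjusted p = 0.0191, limma), and its difference in collagen, 0.28 ± 0.09, did not pass the test (adjusted p = 0.0882). A further probe set for Psme2 gave the same order of groups, with means of 11.25, 10.86, 10.68 and 10.44. Psme1 was 0.27 ± 0.08 higher in fibrin with TNF (adjusted p = 0.0444), while its difference without TNF, 0.13 ± 0.08, did not pass (adjusted p = 0.342). Its call with TNF is lost under 15 of the alternative settings.

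The list of standard proteasome genes gave calls in 1 of the comparisons. Beside subunits it holds the assembly factor Pomp and the further activator genes Psme3 and Psme4. Of the 16 measured genes of this list, 0 were called for TNF in fibrin, for TNF in collagen or between the untreated gels. In these comparisons 3.13%, 6.37% and 10.5% of all genes were called. At an unadjusted p under 0.05 there were 3, 0 and 2 of the 16, beside 15.3%, 18.6% and 23.8% of all genes. Counts of 0 calls in 16 genes therefore do not set them apart from other genes. Between the gels with TNF, 3 of the 16 were higher in fibrin, namely Psma6 by 0.33 ± 0.09, Pomp by 0.32 ± 0.08 and Psma4 by 0.30 ± 0.08, which is 18.8% of them against 4.55% of all genes. At an unadjusted p under 0.05, 8 of the 16 were higher there and 0 lower, beside 22.1% of all genes in either direction. Of the 16 differences, 15 were positive. Their median difference there was 0.18, beside 0.80 for the 5 genes of the immunoproteasome and PA28.

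Tap1 and Tap2 form the peptide transporter. Tap1 measured 10.91, 10.63 and 10.84 in fibrin TNF, 10.46, 10.49 and 10.42 in fibrin control, 9.70, 9.62 and 9.60 in collagen TNF, and 9.03, 8.99 and 9.02 in collagen control. Every fibrin array, treated or not, lay above every collagen array. Fibrin exceeded collagen by 1.44 ± 0.07 without TNF (2.72-fold, adjusted p = 1.33e-07, limma) and by 1.15 ± 0.07 with it (2.23-fold). TNF raised Tap1 by 0.34 ± 0.07 in fibrin (1.27-fold, adjusted p = 0.0274, and 0.0519 with same-numbered arrays of a gel as blocks) and by 0.63 ± 0.07 in collagen (1.54-fold, adjusted p = 2.10e-04). Tap2 was 0.57 ± 0.10 higher in fibrin without TNF and 0.55 ± 0.10 with it, and its TNF differences of 0.28 ± 0.10 in fibrin and 0.31 ± 0.10 in collagen did not pass (adjusted p = 0.180 and 0.0992), although the block brought the one in collagen to 0.0474.

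Tapasin (Tapbp) bridges TAP and the heavy chain. It measured 10.96, 10.55 and 10.39 in fibrin TNF, 10.29, 10.16 and 10.19 in fibrin control, 9.86, 9.68 and 9.77 in collagen TNF, and 9.26, 9.23 and 9.03 in collagen control. The groups did not overlap, although the treated fibrin arrays were the most spread. Without TNF the difference between the gels was 1.04 ± 0.12 (2.06-fold, adjusted p = 1.07e-04, limma). In fibrin its TNF difference of 0.42 ± 0.12 did not pass (adjusted p = 0.0999), and in collagen it rose with TNF by 0.60 ± 0.12 (adjusted p = 0.0108).

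Tapbpl encodes a relative of tapasin that edits the peptides bound to class I. It was 0.77 ± 0.08 higher in fibrin without TNF (1.71-fold) and 0.56 ± 0.08 with it, and it rose with TNF in collagen by 0.35 ± 0.08 (adjusted p = 0.0216, limma). Erap1 trims peptides in the endoplasmic reticulum. It differed between the gels by 0.34 ± 0.08 without TNF and 0.41 ± 0.08 with it, while its TNF differences of 0.15 in fibrin and 0.08 in collagen did not pass. The call without TNF is lost without collagen control replicate 3 or fibrin control replicate 1.

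The general chaperones of the loading complex gave no calls. Pdia3, an oxidoreductase, and the lectins Calr and Canx were called in none of the comparisons. Calr averaged 12.29 ± 0.04 (SD, n = 3) in fibrin TNF, 12.27 ± 0.03 in fibrin control, 12.27 ± 0.02 in collagen TNF and 12.27 ± 0.01 in collagen control. Its difference between the untreated gels was 0.0003, with a 95% interval of -0.12 to 0.12. For Canx the same difference was 0.01 (interval -0.12 to 0.14), and for Pdia3 it was 0.06 (-0.07 to 0.19). Of 10 other folding genes of the endoplasmic reticulum, 0 were called in any comparison by limma, where 1.24% to 10.5% of all genes were called. In each 2-group comparison 1 to 2 of them had an unadjusted p under 0.05, beside 15.3% to 23.8% of all genes. A count of 0 calls in 10 genes does not set them apart from other genes.

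Among the class I chains, B2m, the light chain shared by all of them, differed by small steps. It measured 13.66, 13.51 and 13.68 in fibrin TNF, 13.50, 13.47 and 13.47 in fibrin control, 13.39, 13.36 and 13.32 in collagen TNF, and 13.17, 13.18 and 13.05 in collagen control. No 2 groups overlapped. Fibrin exceeded collagen by 0.34 ± 0.07 without TNF (1.27-fold, adjusted p = 0.00475, limma) and by 0.26 ± 0.07 with it (adjusted p = 0.0297, a call lost under 7 of the alternative settings). The TNF differences of 0.14 in fibrin and 0.22 in collagen did not pass (adjusted p = 0.354 and 0.0732). These values lie near the top of the scale, whose highest value is 14.07, and whether the array compresses differences there was not tested.

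RT1-S3, a non-classical class I heavy chain, had the widest difference of the list. Its levels were 11.45, 11.12 and 11.25 in fibrin TNF, 11.31, 11.31 and 11.24 in fibrin control, 9.92, 9.59 and 9.71 in collagen TNF, and 8.95, 9.15 and 8.68 in collagen control. The 2 fibrin groups overlapped, and both lay above the collagen groups, which were separate. Without TNF it was 2.36 ± 0.12 higher in fibrin (5.13-fold, adjusted p = 1.33e-07, limma), and with TNF 1.54 ± 0.12 (2.90-fold). The TNF difference in fibrin was -0.01 (95% interval -0.28 to 0.26), and in collagen TNF raised it by 0.81 ± 0.12 (1.76-fold, adjusted p = 0.00132).

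The difference of the TNF effect between the gels, fibrin minus collagen, was tested as an interaction. For RT1-S3 it was -0.82 ± 0.17 (adjusted p = 0.0377, limma). This made 1 of 17 class I genes lower and 0 higher, where 0.866% of all genes were called lower and 1.24% either way. For Psmb9 it was -0.37 ± 0.13 and for Tap1 -0.29 ± 0.11, which did not pass (adjusted p = 0.233 and 0.256). The RT1-S3 call is lost when same-numbered arrays of a gel are blocked (adjusted p = 0.0673), over all probe sets (0.0696) and when 1 of 9 arrays is left out, and its adjusted p then reaches at most 0.0970.

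RT1-CE5 and RT1-M3-1 are further class I genes. RT1-CE5 was 0.72 ± 0.15 higher in fibrin without TNF and 0.65 ± 0.15 with it. RT1-M3-1, whose mouse counterpart presents formylated peptides, was 0.48 ± 0.10 higher in fibrin with TNF (adjusted p = 0.0122, limma), and its difference of 0.25 without TNF did not pass (adjusted p = 0.173). Leaving out fibrin TNF replicate 1 or 3 ends the call for each of these genes with TNF, and collagen TNF replicate 3 also ends that of RT1-CE5.

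A common order of the group means ran through the class I arm. In 15 of the 17 genes the means increased in the order collagen control, collagen TNF, fibrin control, fibrin TNF, against 1 of the 18 class II genes and 10.8% of all genes. Collagen control was lowest in 17 of 17 class I genes, in 3 of 18 class II genes and in 29.5% of all genes. These counts of means take in Calr and Canx, whose steps were within their spread. In 12 of the 17 class I genes every fibrin control array lay above every collagen TNF array, and in 0 did they lie below. Over all genes, 9.55% showed the first and 10.6% the second. Among the class II genes these counts were 1 and 10 of 18.

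The TNF effect in collagen and the untreated gel comparison share the collagen control arrays. Each comparison's own values are therefore given side by side. The TNF difference in collagen and the untreated gel difference were 0.81 and 2.36 for RT1-S3, 0.85 and 1.29 for Psmb9, 0.72 and 0.93 for Psmb10, and 0.63 and 1.44 for Tap1. For Psmb8, Tapbp and Tapbpl they were 0.61 and 1.24, 0.60 and 1.04, and 0.35 and 0.77.

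**Figure D2:**
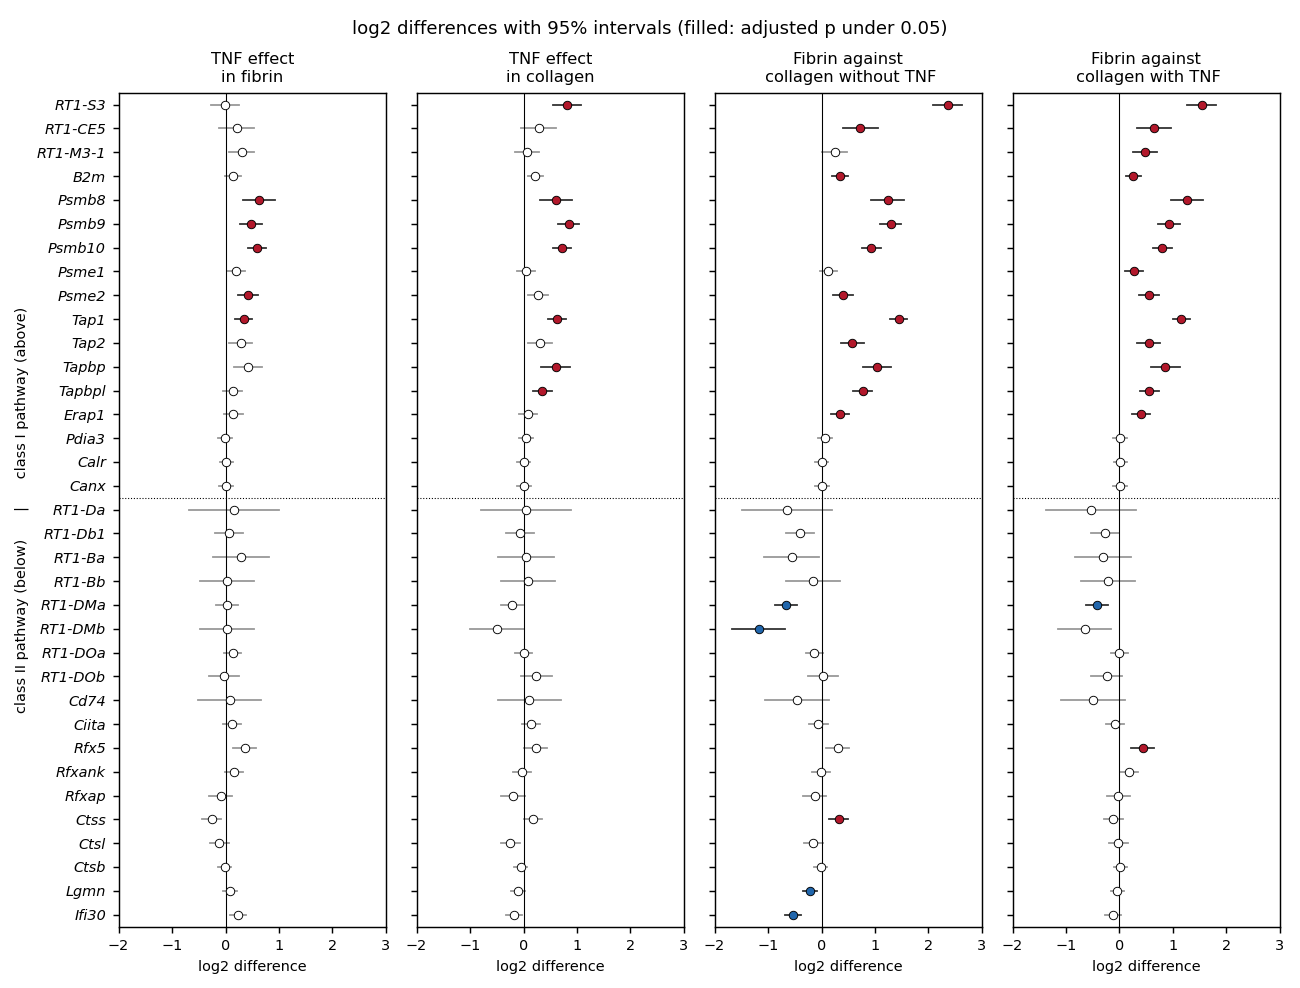
Log2 difference (horizontal axis) with its 95% interval for the 35 genes, class I pathway above the dotted line and class II pathway below it, in 4 comparisons: TNF minus control in fibrin and in collagen, and fibrin minus collagen without and with TNF. Filled points have an adjusted p under 0.05, red above and blue below 0. The class I genes lie to the right of 0 in both gel comparisons except the chaperones Pdia3, Calr and Canx, which lie at 0, and in the gel comparisons the class II points lie near or left of 0, apart from Rfx5 and Ctss, with wide intervals for RT1-Da, RT1-Ba, RT1-Bb and Cd74.

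Promoters of some class I genes are shown next, since their letters can be read beside the values above. Interferon-regulated class I genes commonly carry an interferon-stimulated response element (ISRE) and sites for NF-kB, the factor that TNF activates. RefSeq promoters of assembly GRCr8, 250 bases before to 50 after the start site, were found for 30 of the 35 genes. That assembly is of another rat strain than Fisher 344, so the cultures' own letters can differ. An ISRE, searched on both strands as GAAA, any 2 bases and GAAA, was found in 8 of 15 class I promoters, in 2 of 15 class II promoters and in 3.92% of 33469 promoters of the table. An NF-kB consensus match was found in 5 of 15 class I promoters, 2 of 15 class II promoters and 7.51% of all. The 5 include Calr, which was called in no comparison, while Psmb9, which rose with TNF in both gels, held neither match in its window. A match is a run of letters and not a shown binding site.

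Each stretch below runs from 180 bases before to 10 after the start site, on the gene's own strand, 5′ to 3′. Every class I gene printed holds an ISRE, so these stretches do not stand for the whole class I arm. Capitals mark ISRE letters, read on either strand, and in B2m, Tap1 and Tapbp also the NF-kB match. B2m lies on the plus strand at chr3:129549150-129549339. Tap1, Tapbp and Psmb10 lie on the minus strand, at chr20:4668534-4668723, chr20:4967868-4968057 and chr19:50743283-50743472. RT1-S3 lies on the plus strand at chr20:2675348-2675537.
B2m: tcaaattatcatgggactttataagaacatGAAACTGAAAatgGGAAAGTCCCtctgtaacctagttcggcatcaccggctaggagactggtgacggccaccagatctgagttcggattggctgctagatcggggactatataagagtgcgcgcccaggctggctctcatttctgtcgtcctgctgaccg
Tap1: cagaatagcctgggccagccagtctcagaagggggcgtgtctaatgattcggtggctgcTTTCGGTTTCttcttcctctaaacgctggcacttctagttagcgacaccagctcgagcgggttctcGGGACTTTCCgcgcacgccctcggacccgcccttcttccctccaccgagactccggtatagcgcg
Tapbp: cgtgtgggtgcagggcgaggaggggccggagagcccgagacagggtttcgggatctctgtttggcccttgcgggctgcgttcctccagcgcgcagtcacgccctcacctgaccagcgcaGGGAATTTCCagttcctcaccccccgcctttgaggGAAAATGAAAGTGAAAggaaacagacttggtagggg
Psmb10: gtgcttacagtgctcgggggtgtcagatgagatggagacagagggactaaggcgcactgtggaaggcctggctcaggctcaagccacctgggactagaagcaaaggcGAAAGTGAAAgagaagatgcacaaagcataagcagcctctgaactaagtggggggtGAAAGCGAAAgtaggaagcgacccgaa
RT1-S3: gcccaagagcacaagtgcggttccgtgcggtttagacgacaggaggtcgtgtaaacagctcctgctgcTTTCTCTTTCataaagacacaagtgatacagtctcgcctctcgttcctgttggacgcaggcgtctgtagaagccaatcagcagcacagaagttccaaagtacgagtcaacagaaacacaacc
In B2m the ISRE starts 150 bases and the NF-kB match 137 bases before the start site, so they lie side by side. In Tapbp the NF-kB match starts at 61 and the ISRE, which holds 2 overlapping matches, at 26 and 20 bases before the start. Tap1 has them farther apart, at 121 and 55. Psmb10 holds 2 separate ISRE matches at 73 and 17, and RT1-S3 holds 1 at 112 and no NF-kB match in this window.

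Psmb8, Psme2 and Tap2 also held an ISRE, at 4, 53 and 41 bases before their start sites. Psmb9 and Tap1 are divergent neighbours on chromosome 20. Their start sites lie 457 bases apart, so their 2 promoter windows overlap by 44 bases. The ISRE and NF-kB match of Tap1, at 121 and 55 bases before its start, lie between the 2 start sites but outside the window of Psmb9. Their 4 groups stood in the same order, but so did those of most class I genes (15 of 17 in that order). These include B2m on chromosome 3 and Psmb10 on chromosome 19, so the order is not particular to this pair.

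Among genes outside the 35, Irf1, a factor that binds ISRE letters in class I genes, rose with TNF by 0.50 ± 0.09 in fibrin and 0.48 ± 0.09 in collagen and was 0.63 ± 0.09 higher in untreated fibrin. Irf1 was singled out after its values were seen. Of 5 listed NF-kB subunit genes, 3 were measured. Among these, 1 rose with TNF in fibrin and 2 in collagen, where 1.65% and 3.27% of all genes were called higher. Between the gels 2 were higher in fibrin without TNF and 1 (Nfkb2) with it, where the shares of all genes were 5.35% and 4.55%. Nfkb2 rose with TNF by 0.48 ± 0.06 in fibrin and 0.67 ± 0.06 in collagen and was 0.60 ± 0.06 higher in untreated fibrin. Nfkb1 had a TNF difference of 0.08 ± 0.07 in fibrin, which did not pass, rose by 0.36 ± 0.07 in collagen and was 0.46 ± 0.07 higher in untreated fibrin. Rela was not called in these comparisons. Their part in the class I differences was not tested.

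No class II gene passed the test for TNF in either gel. In fibrin 0 of the 18 class II genes were called by limma, with 2 higher and 1 lower at an unadjusted p under 0.05, where 3.13% of all genes were called and 15.3% were under that unadjusted level. In collagen 0 were called, with 2 higher and 3 lower at that level, where the shares of all genes were 6.37% and 18.6%. Counts this small in 18 genes do not set the class II arm apart from other genes. The medians were 0.07 in fibrin and -0.02 in collagen. Without TNF, 1 of 18 was higher in fibrin and 4 were lower, against backgrounds of 5.35% and 5.19% of all genes. With TNF, 1 was higher and 1 lower, against 4.55% and 3.64%. The median class II differences between the gels were -0.16 without TNF and -0.12 with it. For the interaction 0 of 18 were called, where 0.37% of all genes were called higher and 0.866% lower. At an unadjusted p under 0.05, 1 was higher and 1 lower, beside 13.1% of all genes in either direction.

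**Figure D3:**
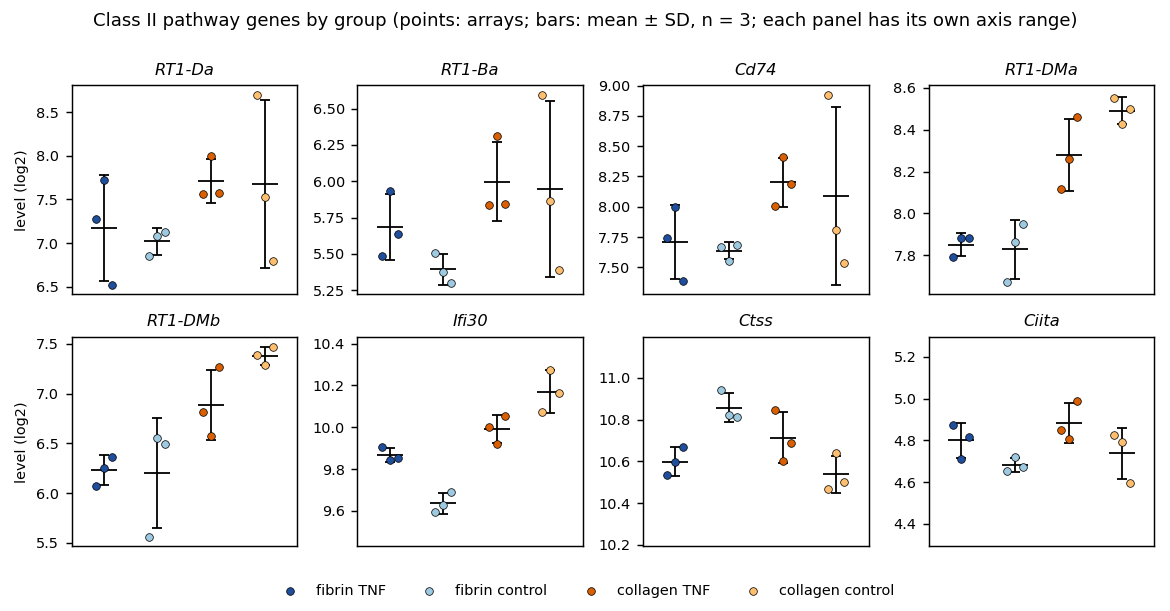
Log2 level (vertical axis, a range of its own in each panel) of 8 class II pathway genes in fibrin TNF, fibrin control, collagen TNF and collagen control rings. Points are arrays, and bars are the mean ± SD of 3 arrays. RT1-DMa, RT1-DMb and Ifi30 are lower in fibrin control than in collagen control, while the bars of RT1-Da, RT1-Ba and Cd74 in collagen control are wide.

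The DM chains, which load class II by exchanging the invariant-chain fragment for a peptide, were lower in untreated fibrin than in untreated collagen. RT1-DMa measured 7.67, 7.86 and 7.95 in fibrin control, against 8.55, 8.43 and 8.50 in collagen control. The difference was -0.67 ± 0.09 (1.59-fold lower, adjusted p = 5.02e-04, limma). With TNF it measured 7.79, 7.88 and 7.88 in fibrin, against 8.12, 8.26 and 8.46 in collagen, a difference of -0.43 ± 0.09 (adjusted p = 0.0136). Fibrin arrays lay below collagen arrays in both comparisons, and the call with TNF is lost without collagen TNF replicate 3 or fibrin TNF replicate 1.

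RT1-DMb measured 5.56, 6.55 and 6.49 in fibrin control, against 7.39, 7.29 and 7.47 in collagen control. Fibrin control replicate 1 lay well below the other two, and all 3 lay below the collagen arrays. The difference was -1.18 ± 0.23 (2.26-fold lower, adjusted p = 0.00512, limma). With TNF the levels were 6.07, 6.25 and 6.37 in fibrin, against 6.82, 6.57 and 7.27 in collagen, and the difference of -0.65 ± 0.23 did not pass (adjusted p = 0.110). The TNF difference in collagen, -0.50 ± 0.23, did not pass either (adjusted p = 0.271). RT1-DOa and RT1-DOb, whose products restrain DM, were called in no comparison.

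The peptide-binding chains RT1-Da, RT1-Db1, RT1-Ba and RT1-Bb, which correspond to human DR and DQ, and the invariant chain Cd74 were called in no comparison. All 5 were highest on collagen control replicate 1 and lowest on replicate 3 of that group. RT1-Da measured 8.70, 7.53 and 6.79 there and Cd74 measured 8.92, 7.81 and 7.54. The SD of RT1-Da in that group was 0.96, and 0.0209% of all genes had a larger one, where the median gene had 0.0964. In the same 3 cultures RT1-DMa had an SD of 0.06 and RT1-DMb of 0.09, so the DM genes did not share this spread.

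In the other groups RT1-Da measured 7.28, 7.72 and 6.52 in fibrin TNF, 6.85, 7.08 and 7.13 in fibrin control, and 7.56, 8.0 and 7.58 in collagen TNF. The untreated gel difference of RT1-Da was -0.65 ± 0.39 (adjusted p = 0.342, limma) with all arrays and -0.14 without collagen control replicate 1. For Cd74 it was -0.45 ± 0.28 (adjusted p = 0.354) and -0.04 without that array. For RT1-Db1 it was -0.40 ± 0.12 (adjusted p = 0.0548) and -0.23 without that array, and for RT1-Ba -0.56 ± 0.24 (adjusted p = 0.175) and -0.23 without it. Leaving out collagen control replicate 3 instead brings RT1-Db1 to -0.54 (adjusted p = 0.00687) and RT1-Ba to -0.83 (adjusted p = 0.0307), both then past the threshold. For RT1-DMa the difference was -0.64 and for RT1-DMb -1.17 without collagen control replicate 1, and both stayed called.

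**Figure D4:**
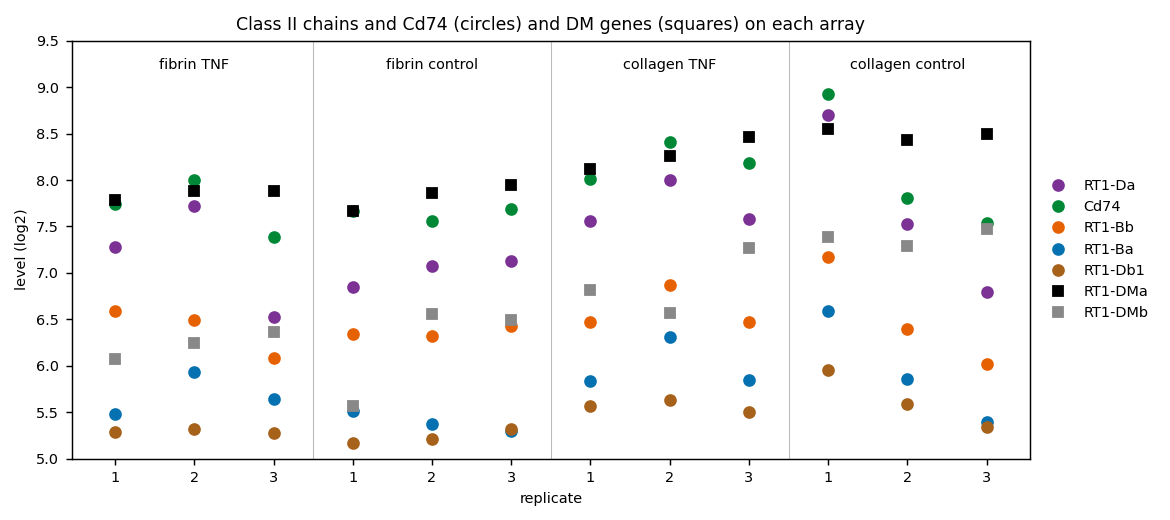
Log2 level (vertical axis) of 4 class II chains and Cd74 (circles) and of the DM genes (squares) on each of the 12 arrays, by replicate number within fibrin TNF, fibrin control, collagen TNF and collagen control. On collagen control replicate 1 all 5 circles are at their highest in that group and on replicate 3 at their lowest, while the squares are level across the 3 arrays.

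On collagen control replicates 1, 2 and 3 the means of the 8 cell marker lists were 9.16, 9.36 and 9.39 for macrophages and monocytes, 5.49, 5.57 and 5.50 for dendritic cells, 5.06, 5.09 and 5.15 for B cells, and 7.40, 7.53 and 7.48 for leukocytes. They were 4.57, 4.66 and 4.59 for T and NK cells, 8.36, 8.68 and 8.50 for smooth muscle, and 11.34, 11.42 and 11.43 for fibroblasts. The endothelial list of 3 markers had 9.67, 9.43 and 9.30, so it was highest on replicate 1 and lowest on replicate 3, as the class II chains were. The other 7 lists were not highest on replicate 1. In fibrin TNF and fibrin control the endothelial list was highest on replicate 1, where RT1-Da was highest on replicates 2 and 3. In collagen TNF both were highest on replicate 2. The part of cell makeup in the class II spread was not tested. Between the gels most markers of the macrophage list, but not all, were lower in fibrin, as the DM genes were. Of its 14 markers, 8 were lower in fibrin and 1 higher, both without and with TNF, where 5.19% and 3.64% of all genes were called lower and 5.35% and 4.55% higher. The medians were -0.44 and -0.65. Among the lower ones without TNF, the scavenger receptor Cd163 differed by -2.19 ± 0.25, the mannose receptor Mrc1 by -1.65 ± 0.19, the complement gene C1qb by -1.06 ± 0.13 and the signalling adaptor Tyrobp by -0.73 ± 0.09. The Fc receptor gene Fcgr3a was 0.58 ± 0.16 higher. Of the 14 differences, 4 were positive without TNF and 2 with it. Adgre1, Itgam and Cd14 were not called between the gels. Their means without TNF were 10.26, 7.43 and 11.49 in fibrin, against 9.74, 7.14 and 11.45 in collagen. In both gel comparisons 1 of 8 dendritic cell markers (Clec10a) and 1 of 4 B cell markers (Blk) were also lower in fibrin. The same held for 1 of 10 T and NK cell markers (Cd4) and 1 of 4 leukocyte markers (Laptm5). In these lists 0 were called higher, beside the same shares of all genes. The part of all these markers in the lower DM and Ifi30 levels was not tested.

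A CCAAT box, the letters that NF-Y binds in class II promoters, was found in 8 of the 8 promoters found for the class II chains and Cd74. It was also found in 9 of 15 class I promoters, 4 of 4 for the heavy chains and B2m among them, and in 37.5% of all promoters. The box is therefore not particular to class II. An ISRE was found in 0 of those 8 class II promoters, beside 3.92% of all promoters. RT1-DMa is shown as the class II gene that was lower in fibrin in both comparisons, at chr20:4712326-4712515 on the minus strand of GRCr8 in the same window as above. Capitals mark 2 CCAAT boxes, which read ATTGG on this strand.
RT1-DMa: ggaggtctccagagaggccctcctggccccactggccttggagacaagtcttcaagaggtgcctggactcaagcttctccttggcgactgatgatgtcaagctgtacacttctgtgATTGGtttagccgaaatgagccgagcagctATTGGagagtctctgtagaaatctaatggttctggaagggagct

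The class II transcription factors gave 1 call. Rfx5, a subunit of the RFX complex that binds class II promoters, was 0.44 ± 0.10 higher in fibrin than in collagen with TNF (adjusted p = 0.0156, limma). It measured 8.27, 8.41 and 8.66 in fibrin TNF, against 7.86, 8.02 and 8.15 in collagen TNF, and the call is lost without collagen TNF replicate 1 or fibrin TNF replicate 3, and in a fit of only the groups compared. Ciita, the coactivator that switches class II on, measured 4.80 ± 0.08 in fibrin TNF, 4.68 ± 0.03 in fibrin control, 4.88 ± 0.10 in collagen TNF and 4.74 ± 0.12 in collagen control (SD, n = 3). These levels lie within the third of genes of lowest mean, below 5.41, and Ciita was called in no comparison. Rfxank and Rfxap, the other RFX subunits, were not called either.

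The endosomal enzymes gave calls in both directions between the untreated gels. Ifi30, a thiol reductase that opens disulfide bonds in antigens, measured 9.59, 9.63 and 9.69 in fibrin control, against 10.07, 10.27 and 10.17 in collagen control. The groups did not overlap, and the difference was -0.54 ± 0.07 (1.45-fold lower, adjusted p = 2.35e-04, limma). With TNF the difference was -0.12 ± 0.07 and did not pass (adjusted p = 0.331), and the interaction of 0.41 ± 0.10 did not pass (adjusted p = 0.0694). Cathepsin S (Ctss), which cuts the invariant chain, went the other way. It measured 10.94, 10.82 and 10.81 in fibrin control, against 10.47, 10.64 and 10.50 in collagen control, and was 0.32 ± 0.08 higher (adjusted p = 0.0212, a call lost under 3 of the alternative settings).

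With TNF in both gels, Ctss differed by -0.11 ± 0.08 (adjusted p = 0.446, limma). Lgmn, an asparaginyl endopeptidase, was 0.22 ± 0.06 lower in untreated fibrin (adjusted p = 0.0377), a call that is lost under 12 of the alternative settings. Cathepsins L (Ctsl) and B (Ctsb) were called in no comparison. Ctsb kept within 13.59 and 13.69 on all 12 arrays.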

How the data were processed

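Rings of rat aorta were hybridised to 12 Affymetrix whole-transcript arrays, from 200 ng of total RNA each, per the labels' protocols. The deposited values were read as log2 expression levels from their range of 1.44 to 14.07, since their normalization and summarisation are not given in the sources used here. Per the submitters' processing notes, limma was used, in a version not stated. Column medians were 5.89 to 5.93 in fibrin and 5.94 to 5.98 in collagen. Of 27342 probe sets, 15097 name 1 gene, 323 name several and 11922 are unnamed here. The probe set of highest mean stood for each gene, which left 14324 genes.

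Groups and replicate numbers came from the sample titles. A linear model with a mean for each group was fitted to all 12 arrays (limma 3.58.1, lmFit then eBayes, R 4.3.3). Tests were two-sided, and p-values were adjusted over all genes (Benjamini-Hochberg, threshold 0.05). Errors of differences are standard errors, and errors of levels are standard deviations with n = 3. The median standard error of a difference was 0.09, a precision set by the number of arrays. The fit was tested on simulated data. Arrays of the same number deviated together within a gel (correlations were 0.25, 0.14 and 0.16 for fibrin, and 0.13, 0.14 and 0.14 for collagen). This was read as pairing within a gel. Between the gels the correlations were 0.23, 0.08 and 0.13 without TNF and 0.05, 0.03 and 0.14 with it. Some of these are as large as those within a gel, but no pairing was taken between the gels, and whether there was any was not tested. The main fit holds no pairing, which enters only in the block settings. The labels used here give no scan dates, and batch was not tested.

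All 35 measured members could be named, further RT1 genes too, and from each context list at most 4 called genes per comparison and 3 others. The members and lists were chosen with earlier results of these data known. Alternatives were 22 settings on normalization, probe sets, filter, prior, weights, samples, blocks and left-out arrays. Promoters came from RefSeq (GRCr8). Some context results are not reported here.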

Additional observations from a re-analysis of the deposited data

Results flagged for a closer look

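RT1-S3 was the 1 gene of the 35 whose TNF effect differed between the gels by a test of the difference itself. The TNF effect in fibrin minus that in collagen was -0.82 (log2, adjusted p = 0.0377, limma). TNF moved RT1-S3 by -0.01 in fibrin, where treated arrays were at 11.45, 11.12 and 11.25 and control arrays at 11.31, 11.31 and 11.24. In collagen it moved by 0.81, with treated arrays at 9.92, 9.59 and 9.71 and control arrays at 8.95, 9.15 and 8.68. The sign was negative under each alternative setting run, and the adjusted p ranged from 0.0133 to 0.0970. Probes shared with other RT1 class I genes may enter this value, and their part was not tested.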

How the results depend on the processing

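Of 46 calls of the 35 genes in the 5 comparisons, 29 held under every alternative run and 17 were lost under at least 1, while no called value changed sign. The number of genes called was 7 for TNF in collagen (5 to 8 with 1 array left out), 17 for fibrin against collagen without TNF (14 to 18) and 16 with TNF (11 to 16). It was 5 for TNF in fibrin and 1 for the difference of the TNF effect. The TNF count in fibrin was 3 over all probe sets and with array weights, 9 with a trended and robust prior, 1 in a fit of only the groups compared, and 1 to 6 with 1 array left out. The count for the difference was 3 without the third of genes of lowest mean and with a trended and robust prior, 0 over all probe sets, and 0 to 1 with 1 array left out. With a replicate block (same-numbered arrays of a gel) the counts were 8 for TNF in collagen, 4 for TNF in fibrin and 0 for the difference. As reported above, that block ended the calls of Tap1 in fibrin and of RT1-S3 for the difference and added Tap2 in collagen, and it changed no other call of the TNF effects. A block within each gel was not run for the comparisons between gels, since such blocks are confounded with the gel. A block across all arrays gave 8, 7, 18, 16 and 1 calls. The causes of these moves were not tested. Genes of low signal such as Ciita and RT1-DOb are least able to show a difference.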

Other observations

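Of 23 further RT1 genes named by single-symbol probe sets, 12 were higher in fibrin than in collagen without TNF and 11 with TNF, with 0 lower in both, where 5.35% and 4.55% of all genes were called higher. With TNF, 1 rose in fibrin and 7 in collagen, with 0 lower, where 1.65% and 3.27% of all genes were called higher. Among them, RT1-T24-4 was higher in fibrin by 1.90 without TNF and 1.91 with it, while its TNF differences were -0.08 in fibrin and -0.09 in collagen and did not pass (limma). RT1-N3 was higher in fibrin by 1.30 and 1.07, and RT1-CE7 rose with TNF by 0.44 in fibrin and 0.68 in collagen. With same-numbered arrays of a gel as blocks, the 1 call in fibrin, RT1-CE7, is lost (adjusted p = 0.0666, against 0.0276 without blocks), and RT1-M10-1 is called lower with TNF in collagen (-0.38, adjusted p = 0.0123, against 0.289 without blocks). RT1-M10-1 has the lowest mean of the 23 (3.41), and its treated and control arrays in collagen overlapped. In all, 10 of the 23 lie within the third of genes of lowest mean. The 23 RT1 genes can share probes with each other and with RT1-S3 and RT1-CE5, so the counts are not of independent genes.

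Among 6 co-stimulation and checkpoint genes, 1 was called for TNF in fibrin, where 1.65% of all genes were called higher. This was Cd83, a marker of mature dendritic cells whose product stabilises class II at the surface. It rose with TNF in fibrin by 0.99 ± 0.11 (SE, adjusted p = 4.63e-04, limma). In collagen its TNF difference of -0.19 did not pass (adjusted p = 0.409), and the interaction, fibrin minus collagen, was 1.18 ± 0.15 (adjusted p = 0.00322). Without TNF the difference of fibrin from collagen was -0.86 ± 0.11. Cd40, a co-stimulatory receptor, was 0.32 ± 0.09 higher in untreated fibrin (adjusted p = 0.0360).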
